A study of Caenorhabditis elegans with 4 samples.

Results

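The transthyretin-like genes of *Caenorhabditis elegans* were taken as the rows of the deposited expression table named *ttr-* followed by a number, with 1 gene of that name left out. The rule used gene names and no expression value, and it found 51 genes of the 15408 in the table. All 51 were tested. The current annotation of the WBcel235 assembly (Ensembl) names 57 such genes besides the one left out, and those without a row were not analysed here.

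The study asked how wild-type nematodes respond to cisplatin, a platinum drug that crosslinks DNA and binds protein thiols. RNA was sequenced from 4 populations of the wild-type strain N2, each a mixture of all developmental stages. Of these, 2 (cisplatin 1 and 2) were exposed to 60 µg/ml of the drug for 24 h at 20°C, and 2 (control 1 and 2) were untreated. The treatment label gives this dose, whereas a protocol text attached to every sample reads 0 µg/ml, and the dose in the treatment label was used. The replicates are described as biological, but the labels do not say that a shared replicate number marks a shared culture or day, although the study describes treated and untreated animals as compared in separate experiments. Each library comes from whole animals of mixed age. In such material fewer cells or animals that express a gene and less RNA per cell cannot be told apart.

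Transthyretin-like proteins form a family that is greatly expanded in nematodes. Most are small, carry a signal for secretion and have a fold resembling that of vertebrate transthyretin, the blood protein that carries thyroid hormone and retinol-binding protein. A related but separate group, the transthyretin-related proteins, act as hydroxyisourate hydrolases in the breakdown of uric acid. For most nematode members no function is known. In *C. elegans*, TTR-33 protects dopaminergic neurons against oxidative stress, and TTR-11 takes part in axon regeneration by linking exposed phosphatidylserine to integrin signalling.

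The gene models of the 51 members were alike in size. Their proteins had a median length of 143 residues, and 48 of the 51 fell between 130 and 180 residues. The shortest was TTR-11 with 110 residues. The longest was TTR-14 with 406, well above the next longest, TTR-50, with 213. The median number of exons was 3, with 2 to 5 in 50 members and 9 in *ttr-14*. The genes lie on chromosome V (19 members), X (12), IV (10), III (8) and II (2). In 13 members the exons overlap those of another coding gene, which lies on the opposite strand in all but *ttr-33*. The sources used here give no strand setting for the counting, so reads from overlapping genes cannot be told apart for *ttr-7*, *ttr-8*, *ttr-14*, *ttr-16*, *ttr-32*, *ttr-33*, *ttr-39*, *ttr-42*, *ttr-43*, *ttr-44*, *ttr-47*, *ttr-50* and *ttr-51*.

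Levels were given as FPKM, which scale the fragments of a gene to its exon length and to the mapped fragments of its library, so that they can be compared between genes of different length. Of each group, the library numbered 1 is given first. The mean level over the 4 libraries ran from 0.558 FPKM for *ttr-11* to 959 FPKM for *ttr-15*, with a median of 35.5 FPKM. *ttr-15* (III:10337847-10339440, 2 exons) was the most abundant member, at 1099.9 and 930.1 FPKM in cisplatin 1 and 2 and 811.1 and 994.6 FPKM in control 1 and 2. Its mean level exceeded that of 98.7% of the 15065 genes tested, among which it ranked 192. The ranges of the treated and untreated libraries overlapped, with the lowest value in control 1 and the highest in cisplatin 1.

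*ttr-16* (IV:11063530-11064137), whose exons overlap *lin-3* on the opposite strand, followed at 869.0 and 746.4 FPKM in cisplatin 1 and 2, and 777.1 and 798.8 FPKM in control 1 and 2. *ttr-2* (III:9927769-9929004) had 873.7 and 611.8 FPKM after exposure, against 929.8 and 608.6 FPKM in the controls. Both libraries numbered 1 were thus above both libraries numbered 2 for *ttr-2*, whatever the treatment, whereas the *ttr-16* values lay within 0.22 of each other on the log2 scale. Across libraries the ranges of these first 3 genes overlapped, since the lowest *ttr-15* value was below the highest values of *ttr-16* and *ttr-2*. Within every library, however, *ttr-15* was above *ttr-16*, whereas the place of *ttr-2* varied.

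*ttr-51* (IV:13250655-13252311) had 652.3 and 557.6 FPKM in the treated and 393.2 and 632.6 FPKM in the untreated libraries. *ttr-45* (IV:13254225-13255538), its neighbour on the chromosome, had 358.6 and 318.2 FPKM in cisplatin 1 and 2, and 202.7 and 346.6 FPKM in control 1 and 2. *ttr-18* (II:11485510-11486748) had 215.5 and 266.6 FPKM after exposure, against 189.2 and 275.3 FPKM in the controls. All 3 were lowest in control 1, and the *ttr-51* values lay above all *ttr-45* values. The ranges of *ttr-45* and *ttr-18* overlapped across libraries, although *ttr-45* was above *ttr-18* within every library. These 6 genes held between 58.5% and 67.6% of the FPKM of the family in each library.

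Over genes without a failed estimate in any library, the 51 genes together took 0.596% of the summed FPKM of each cisplatin library. In control 1 and 2 they took 0.443% and 0.655%. Over all genes in the table the shares were 0.586% and 0.578% in cisplatin 1 and 2 and 0.436% and 0.637% in control 1 and 2. The share of the untreated libraries thus spanned that of the treated ones, and the ratio of the group means was 1.08. The median member stood at 30.4 and 41.1 FPKM in cisplatin 1 and 2 and at 17.9 and 50.5 FPKM in control 1 and 2. Over all genes without a failed estimate the median was 9.22 and 12.2 FPKM in the treated and 6.62 and 12.7 FPKM in the untreated libraries, with the same order of libraries. At the low end, *ttr-11* (V:20603314-20604428) was listed at 0 in cisplatin 1 and control 1 and at 0.761 and 1.47 FPKM in cisplatin 2 and control 2. The files hold no read counts, and no limit was computed for these values of 0.

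**Figure D1:**
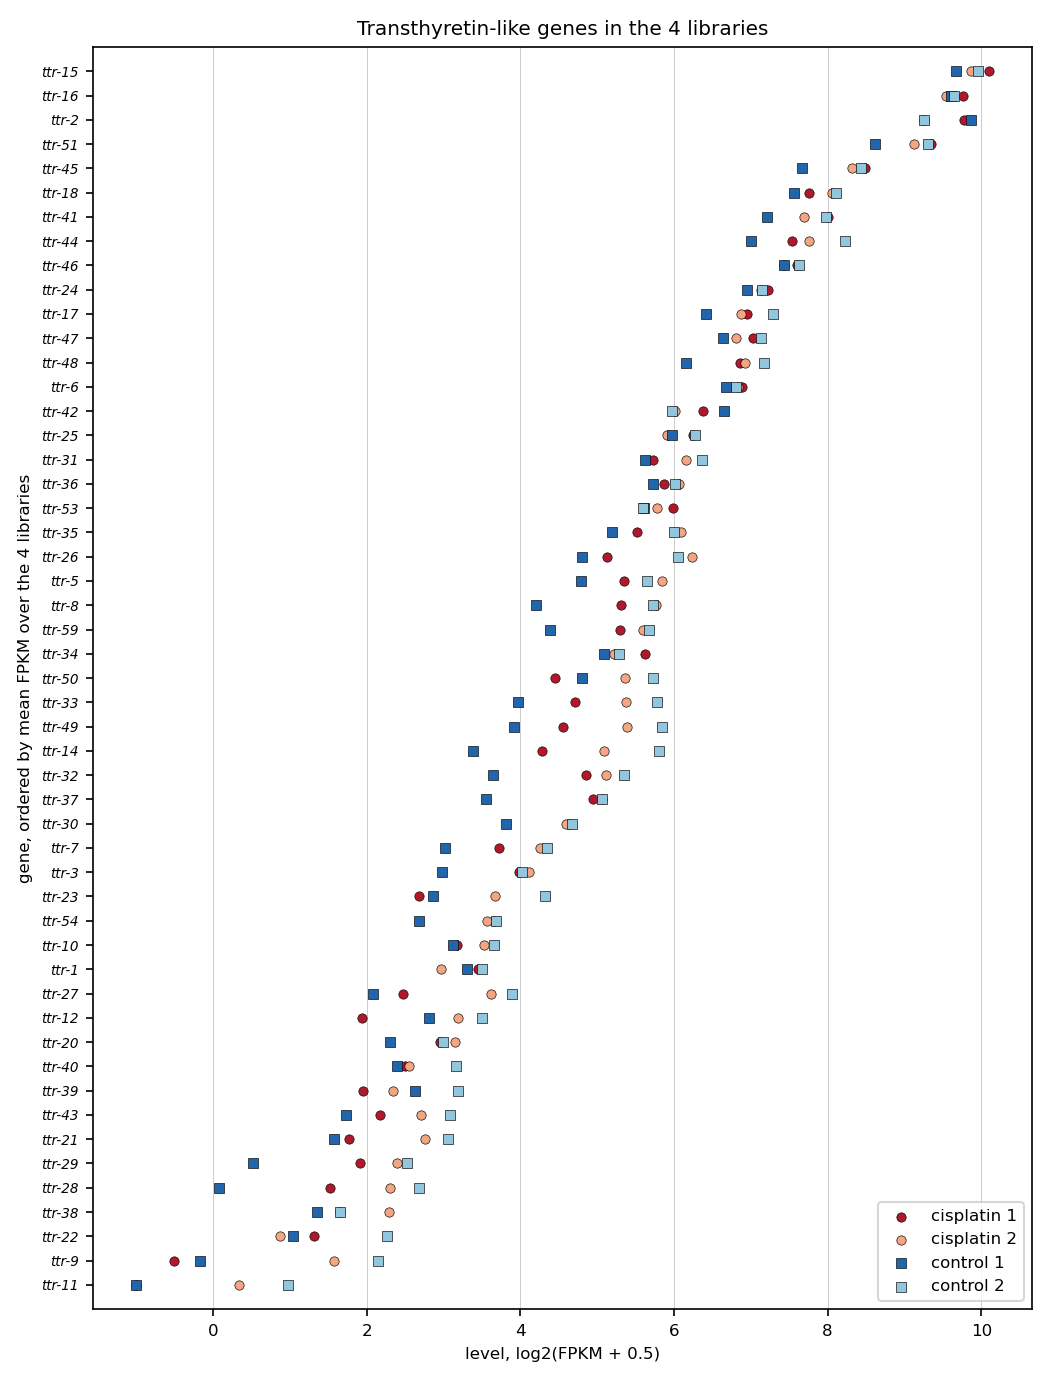
Level of each of the 51 transthyretin-like genes in the 4 libraries as log2(FPKM + 0.5), ordered by mean FPKM from *ttr-15* (959 FPKM) to *ttr-11* (0.558 FPKM). Circles are cisplatin libraries and squares control libraries, 1 point per library; control 1 (dark squares) is the lowest point in 38 genes.

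The first comparison was of cisplatin with control over the 2 libraries of each group. No member passed the test. Differences on the log2(FPKM + 0.5) scale ran from -0.76 for *ttr-39* to 0.70 for *ttr-37*, with a median of 0.09, and 43 of the 51 (84.3%) were under 0.5 in size, as were 83.3% of all genes tested. The median of all 15065 genes tested was 0.13 on the same scale, and the median member relative to it stood at -0.04. In limma's moderated test 0 of 51 members passed an adjusted p of 0.05, nor did any gene in the table (0%). At an unadjusted p of 0.05 the counts were also 0 of 51 in each direction, where 1.12% of all genes were higher and 0.445% were lower. The smallest unadjusted p of a member was 0.205 (*ttr-37*), and every member's adjusted p was 1.00 (Benjamini-Hochberg). Without control 2, 12 members (23.5%) were higher at an unadjusted p of 0.05, against 4.98% of all genes, and 0 passed after adjustment. In the paired fit, with the replicate number as a block, 2.45% of all genes (369) passed the adjusted p of 0.05 and again 0 members, while 6 members (11.8%) were higher at an unadjusted p of 0.05, against 6.92% of all genes, and 0 lower, against 2.93%. The smallest two-sided p that an exact permutation test of 2 against 2 can give is 0.33.

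Standard errors of the log2 difference lay between 0.18 (*ttr-6*) and 1.11 (*ttr-9*), so the size of change that could have been seen differed widely among members. Of the 14 members with a mean above 100 FPKM, 12 had a 95% interval inside 2-fold in either direction, the exceptions being *ttr-45* and *ttr-48*. Of the other 37 members 6 had such an interval. It ran from -0.45 to 0.79 for *ttr-15*, from -0.34 to 1.04 for *ttr-45* and from -1.26 to 1.61 for *ttr-33*. Changes of more than 2-fold thus lay inside the interval for most members.

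Among the members that were higher with cisplatin in both same-numbered comparisons, *ttr-37* (X:1335364-1337175) had the smallest p. Its levels were 30.4 and 32.97 FPKM in cisplatin 1 and 2, and 11.2 and 32.8 FPKM in control 1 and 2. The difference was 0.70 (s.e. 0.50), with control 1 well below the other libraries and control 2 inside the treated range. *ttr-53* (IV:10158038-10158974) had 63.0 and 54.5 FPKM after exposure, against 48.4 and 47.7 FPKM in the controls, a log2 difference of 0.28 (s.e. 0.20). Here both treated libraries were above both untreated ones.

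*ttr-3* (III:9925459-9926750) had 15.3 and 16.9 FPKM in the treated and 7.43 and 15.8 FPKM in the untreated libraries. *ttr-8* (III:7564500-7565347), whose exons overlap *lgc-12*, had 39.4 and 54.1 FPKM in cisplatin 1 and 2, and 17.9 and 52.5 FPKM in control 1 and 2. *ttr-5* (III:9330316-9330928) had 40.3 and 56.8 FPKM after exposure, against 27.2 and 49.8 FPKM in the controls. In all 3 genes control 1 was the lowest library and control 2 lay inside the treated range. Without control 1 the log2 differences of *ttr-37*, *ttr-5* and *ttr-8* were -0.05, -0.06 and -0.19 in place of 0.70, 0.37 and 0.58. That of *ttr-3* was 0.025 in place of 0.54.

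Of the members lower with cisplatin in both same-numbered comparisons, *ttr-39* (IV:10088367-10089877), whose exons overlap the kinetochore gene *ndc-80*, had 3.38 and 4.57 FPKM in the treated and 5.69 and 8.61 FPKM in the untreated libraries. The groups did not overlap, and the log2 difference was -0.76 (s.e. 0.60). *ttr-12* (V:20607777-20608788) had 3.34 and 8.65 FPKM in cisplatin 1 and 2, and 6.53 and 10.8 FPKM in control 1 and 2, so its groups overlapped.

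*ttr-50* (IV:11640047-11641015) had 21.4 and 40.8 FPKM after exposure, against 27.4 and 52.5 FPKM in the controls. *ttr-23* (V:10589092-10589860) had 5.94 and 12.3 FPKM in the treated and 6.79 and 19.5 FPKM in the untreated libraries. *ttr-9* (IV:9505543-9506351) had 0.206 and 2.48 FPKM in cisplatin 1 and 2, and 0.387 and 3.91 FPKM in control 1 and 2. In these 3 genes both libraries numbered 2 were above both libraries numbered 1, so that the difference between numbers exceeded that between treatments. *ttr-33* (V:7837093-7837909), the gene linked to protection from oxidative stress, had 25.7 and 41.1 FPKM after exposure, against 15.1 and 54.5 FPKM in the controls. Its log2 difference was 0.17 (s.e. 0.59), with the untreated libraries at both ends of the range, and it was -0.03 and -0.06 after scaling to a common median and quantile normalization.

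Both treated libraries lay above both untreated ones in 3 members, *ttr-6*, *ttr-38* and *ttr-53*, which is 5.88% of the family against 15.1% of all genes tested. They lay below in 1 member, *ttr-39*, against 4.21% of all genes. With libraries scaled to a common median the counts were 5 above (9.80%, against 7.79% of all genes) and 8 below (15.7%, against 9.24%). With quantile normalization they were 3 above (5.88%, against 12.8%) and 6 below (11.8%, against 12.5%). *ttr-6* had 117.7 and 113.5 FPKM in the treated and 102.2 and 111.4 FPKM in the untreated libraries, while *ttr-38* had 2.66 and 4.39 FPKM against 2.05 and 2.66 FPKM. These gaps between the groups were small, and in *ttr-38* the nearest treated and untreated libraries had the same value to 3 digits.

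When cisplatin was compared with control within each replicate number, most members stood on opposite sides in the 2 comparisons. Cisplatin 1 was above control 1 and cisplatin 2 below control 2 in 32 of 51 members (62.7%), against 34.4% of all genes tested. The reverse was seen in 2 members, *ttr-2* and *ttr-42* (10.9% of all genes). Cisplatin was higher in both comparisons in 11 members (21.6%, against 38.4% of all genes) and lower in both in 5 (9.80%, against 15.7%). The remaining gene, *ttr-11*, was at 0 in both libraries numbered 1. The median log2 difference of the members was 0.39 for number 1 and -0.18 for number 2, and over all genes it was 0.25 and -0.00.

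These counts depended on how the libraries were scaled. After scaling all libraries to a common median, 18 members (35.3%, against 17.8% of all genes) were higher in number 1 and lower in number 2. In that scaling 5 were higher in both (9.80%, against 19.5%) and 17 lower in both (33.3%, against 26.4%). With quantile normalization the counts were 26 (51.0%, against 22.1%), 8 (15.7%, against 27.5%) and 16 (31.4%, against 26.6%). The median difference of the members was -0.04 for number 1 and -0.13 for number 2 with a common median, and 0.18 and -0.20 with quantile normalization. Over all genes the corresponding medians were -0.16 and 0.04, and then -0.00 and 0.01. The medians of the family thus lay on opposite sides of 0 as deposited and with quantile normalization, and on the same side with a common median. Against genes of like level, as deposited, the medians for numbers 1 and 2 differed by abundance. The 17 most abundant members stood at 0.18 and -0.25, and the 17 of middle abundance at 0.49 and -0.11. The 17 least abundant members stood at -0.17 and -0.26 against such genes, although their own medians were 0.21 and -0.37.

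**Figure D2:**
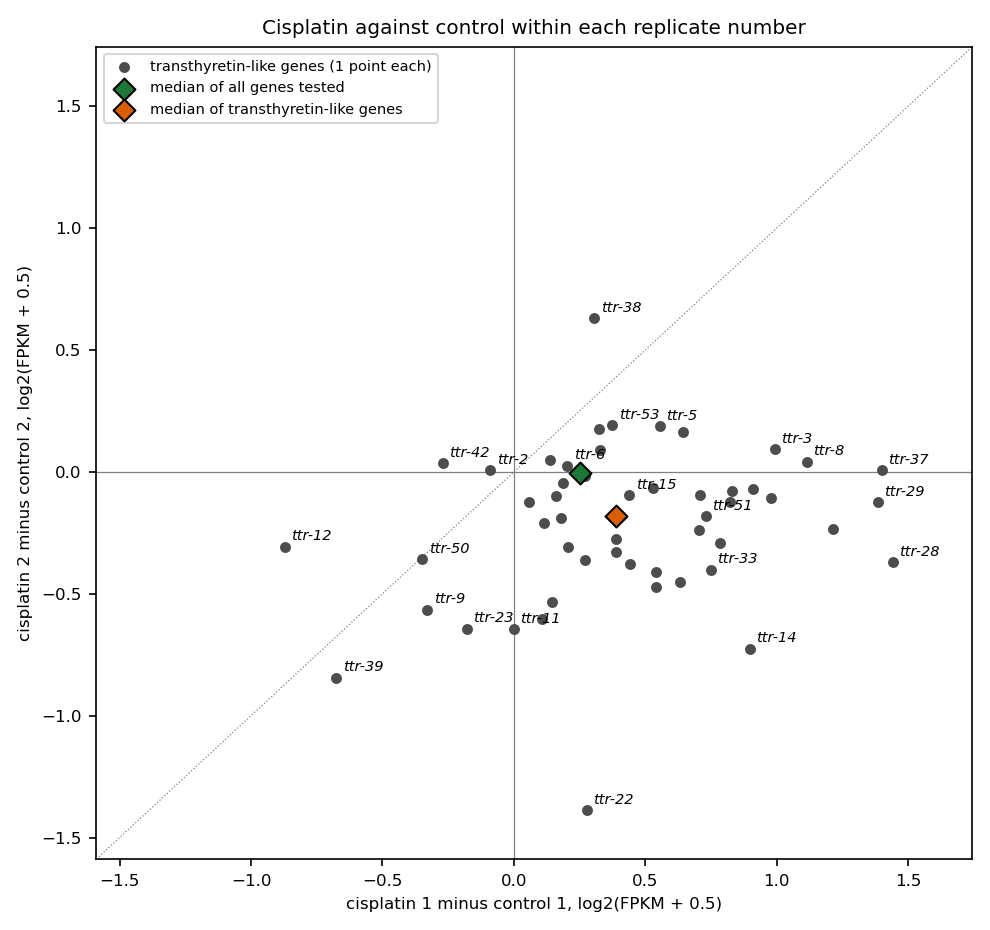
Difference between cisplatin and control on the log2(FPKM + 0.5) scale for replicate number 1 (horizontal) and number 2 (vertical), 1 point per transthyretin-like gene, as deposited. The lower right quadrant, higher in number 1 and lower in number 2, holds 32 of 51 genes; diamonds give the median of the family (0.39, -0.18) and of all genes tested (0.25, -0.00).

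Control 1 was the lowest of the 4 libraries in 38 members (74.5%), against 59.5% of all genes tested, and control 2 the highest in 31 (60.8%), against 41.3%. With a common median these counts were 13 (25.5%, against 25.6%) and 16 (31.4%, against 26.4%), near the shares of all genes. With quantile normalization they were 29 (56.9%, against 28.5%) and 32 (62.7%, against 27.7%). The next comparison was of libraries numbered 2 with those numbered 1 inside each group. The median member was 0.86 higher on the log2 scale in control 2 than in control 1, and 0.22 higher in cisplatin 2 than in cisplatin 1. Over all genes the medians were 0.64 and 0.28. A difference of at least 1 in size was found in 21 members (41.2%) among the controls, against 37.3% of all genes, and in 5 (9.80%) among the treated libraries, against 17.5%.

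Libraries numbered 2 were above those numbered 1 in both groups in 32 members (62.7%), close to the 64.6% of all genes. The opposite held in 3 members (5.88%, against 18.8% of all genes), namely *ttr-2*, *ttr-42* and *ttr-53*. With a common median the counts were 15 (29.4%, against 35.2% of all genes) and 22 (43.1%, against 46.7%). With quantile normalization they were 29 (56.9%, against 34.7%) and 10 (19.6%, against 39.8%), so their place relative to all genes depended on the scaling. Across the 51 members the difference between numbers in one group went with that in the other (Pearson r = 0.69, Spearman rho = 0.69). Over all genes tested the values were 0.59 and 0.73. This correlation is across genes of the same 4 libraries, which are not independent replicates.

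The 4 members with the largest differences between numbers of one sign in both groups were *ttr-9*, *ttr-28* and *ttr-11*, all weakly expressed, and *ttr-14*, with a mean of 29.5 FPKM. *ttr-9*, described above, was 10.1-fold higher in control 2 than in control 1 and 12.0-fold higher in cisplatin 2 than in cisplatin 1. *ttr-28* (V:12904213-12905174) had 2.37 and 4.45 FPKM in cisplatin 1 and 2, and 0.556 and 5.90 FPKM in control 1 and 2, which is 10.6-fold between the controls and 1.88-fold between the treated libraries. *ttr-14* (X:10787503-10789700), the member with the longest protein, had 19.003 and 33.4 FPKM after exposure, against 9.96 and 55.5 FPKM in the controls. *ttr-14* was thus 5.57-fold higher in control 2 than in control 1, the strongest such difference among members with a mean above 10 FPKM, and its exons overlap *vap-2* on the opposite strand.

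Opposite to these, *ttr-42* (X:2577742-2578262) had 82.7 and 63.9 FPKM in the treated and 99.8 and 62.3 FPKM in the untreated libraries. The log2 difference of control 2 and control 1 was -0.67 for *ttr-42* and -0.61 for *ttr-2*, and it was otherwise negative only for *ttr-53* (-0.02). In *ttr-42* and *ttr-2* the values of the libraries numbered 2 were nearly the same with and without the drug.

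The difference between numbers varied with the level of a gene. Between mean FPKM and the log2 difference of control 2 and control 1 the Spearman rho was -0.52 over the 51 members, and -0.53 over all genes tested. The members were therefore set beside all genes of the same range of mean FPKM. The 17 most abundant members, from 63.5 to 959 FPKM, were a median of 0.50 higher in control 2 than in control 1, whereas the 2046 genes in that range stood at -0.13. The 17 members between 13.8 and 60.2 FPKM stood at 1.25, against 0.27 for 4529 genes. The 17 least abundant members stood at 1.22, against 1.13 for 7398 genes.

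Between the controls, abundant and moderately abundant members thus lay 0.63 and 0.98 above genes of like level, and weakly expressed members lay 0.09 above. With quantile normalization these distances were 0.69, 0.81 and 0.09. Scaling to a common median leaves such distances nearly unchanged by its construction. Between the treated libraries, as deposited, they were -0.04, 0.33 and -0.10. Whether the distances differ between controls and treated libraries was not tested.

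**Figure D3:**
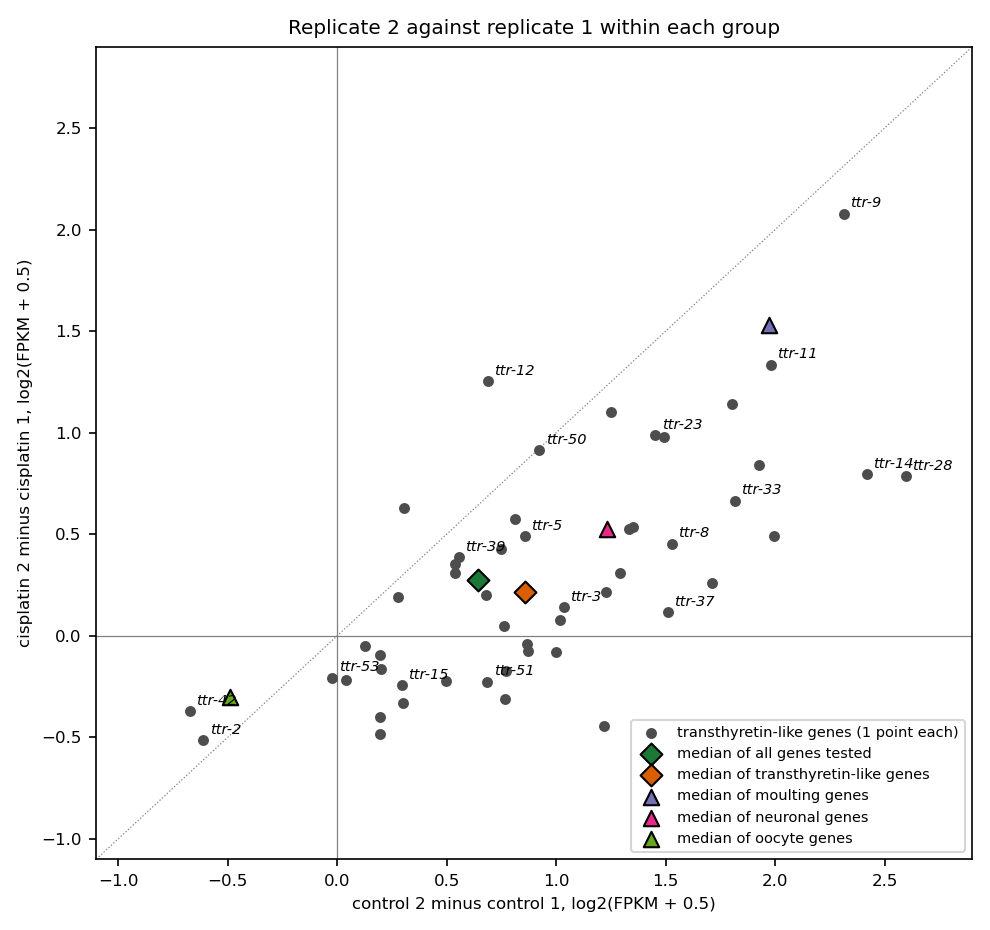
Difference between libraries numbered 2 and 1 on the log2(FPKM + 0.5) scale among controls (horizontal) and among cisplatin libraries (vertical), 1 point per transthyretin-like gene, as deposited. Diamonds mark the medians of the family (0.86, 0.22) and of all genes tested (0.64, 0.28), and triangles those of moulting (1.97, 1.53), neuronal (1.23, 0.53) and oocyte genes (-0.49, -0.30).

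Markers of stages and tissues were compared between the same libraries as deposited, where the medians of all genes tested were 0.64 among controls and 0.28 among treated libraries. These lists were not rescaled or set beside genes of like level. Of the 10 genes of the moulting list, which build and shed the larval cuticle, all 10 were tested, and they were a median of 1.97 higher in control 2 than in control 1 and 1.53 higher in cisplatin 2 than in cisplatin 1. Their summed level was 171 and 445 FPKM in cisplatin 1 and 2, and 155 and 511 FPKM in control 1 and 2. The 10 neuronal markers were 1.23 and 0.53 higher, with summed levels of 509 and 542 FPKM after exposure, against 412 and 556 FPKM in the controls. Both lists, like the transthyretin-like genes and the table as a whole, had the larger difference among the controls, and these differences between groups were not tested.

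The 8 epidermal markers were 1.73 and 1.53 higher with number 2 in controls and treated libraries. The 8 markers of body wall muscle were 0.64 and 0.15 higher, against 0.64 and 0.28 for all genes tested. The summed levels of the epidermal and muscle lists ran from 2122 to 2204 FPKM and 3705 to 3924 FPKM with cisplatin. Without it they ran from 2062 to 2390 FPKM and 3564 to 3842 FPKM. Of the 10 oocyte and early embryo markers 7 were tested, with median differences of -0.49 and -0.30 between numbers 2 and 1 in controls and treated libraries, and with sums of 2142 and 1714 FPKM in the treated and 2218 and 1414 FPKM in the untreated libraries. Of the 8 intestinal markers 6 were tested, with medians of 0.25 and -0.09. The markers *egg-1* and *act-5* were left out for a failed estimate, and no marker of the moulting, neuronal, epidermal or muscle lists was listed at 0 in any library.

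Sperm genes of the *msp* family, which encode the major sperm protein, had median log2 differences between cisplatin and control of -1.32 and -0.77 for numbers 1 and 2, all 30 being lower in both. The 6 yolk protein genes stood at -0.41 and -0.23, with 6 of 6 lower in both. The neuronal list stood at 0.38 and -0.22, with 9 of 10 genes higher in number 1 and lower in number 2, and the moulting list stood at 0.22 and -0.21, also with 9 of 10. Muscle markers stood at 0.35 and -0.08 (6 of 8 genes in that way), epidermal markers at 0.13 and -0.13 (4 of 8), intestinal markers at 0.24 and 0.07 and oocyte markers at 0.04 and 0.28. The transthyretin-like genes, at 0.39 and -0.18, had the signs of the neuronal, moulting, muscle and epidermal lists. Over all genes tested the medians, 0.25 and -0.0027, had these signs too. The marker lists were compared only as deposited, and with a common median the family stood at -0.04 and -0.13. The part of these stage and tissue differences in the levels of the transthyretin-like genes was not tested.

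Many members lie side by side in the genome. Counting members at most 5 kb apart, 25 of the 51 fell into 11 runs, with 14 neighbouring pairs, of which 8 were on the same strand. The mean levels of neighbours differed by a median of 2.32-fold, and the same gene of the pair was higher in all 4 libraries in 11 of 14 pairs. Neither value was computed over all pairs of members, so they do not set neighbours apart from other members. The widest contrast was on chromosome III. There *ttr-2*, at a mean of 756 FPKM, lay 1018 bp from *ttr-3* (13.8 FPKM) and 72 bp from *ttr-1* (9.50 FPKM), and it was 54.6-fold and 79.6-fold above them. *ttr-1* (III:9929077-9930413) had 10.4 and 7.33 FPKM in cisplatin 1 and 2, and 9.40 and 10.8 FPKM in control 1 and 2. One of the most abundant members thus lay between 2 far less abundant ones.

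*ttr-16* was 6.64-fold above *ttr-17* (IV:11066019-11067026), which had 123 and 117 FPKM after exposure, against 84.7 and 155 FPKM in the controls. *ttr-49* (V:9355505-9356515) had 22.9 and 41.5 FPKM in the treated and 14.6 and 56.9 FPKM in the untreated libraries, and was 5.73-fold above *ttr-40*, 33 bp away on the same strand, with 5.17 and 5.37 FPKM in cisplatin 1 and 2, and 4.76 and 8.43 FPKM in control 1 and 2. *ttr-53* was 5.12-fold above *ttr-54* (IV:10155775-10156771), which had 12.1 and 11.4 FPKM after exposure, against 5.90 and 12.3 FPKM in the controls. In these pairs the less abundant gene *ttr-54* and the more abundant gene *ttr-49* were each more than 2-fold higher in control 2 than in control 1.

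Other neighbours were close in level. *ttr-51* was 1.82-fold above *ttr-45*, with a ratio between 1.75 and 1.94 in each of the 4 libraries. *ttr-36* (X:6510927-6512195) had 58.0 and 66.2 FPKM in the treated and 52.7 and 64.03 FPKM in the untreated libraries, and *ttr-35* (X:6512285-6512918), 89 bp away, had 45.4 and 67.8 FPKM in cisplatin 1 and 2, and 36.1 and 63.7 FPKM in control 1 and 2. These genes did not keep one order in all libraries. *ttr-8* and *ttr-32* (III:7566411-7567523) differed by 1.42-fold, with *ttr-32* at 28.5 and 34.3 FPKM after exposure, against 12.0 and 40.4 FPKM in the controls.

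In the remaining runs, *ttr-24* (V:18555387-18556643) had 149 and 139 FPKM in the treated and 123 and 141 FPKM in the untreated libraries, and *ttr-25*, 70 bp away, had 75.5 and 59.9 FPKM in cisplatin 1 and 2, and 62.5 and 77.1 FPKM in control 1 and 2. *ttr-26*, the next gene, had 34.5 and 74.7 FPKM after exposure, against 27.5 and 66.1 FPKM in the controls. The log2 difference between library numbers was thus more than 1 for *ttr-26* in both groups and less than 0.5 in size for its neighbours *ttr-24* and *ttr-25*.

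*ttr-27* (V:12903550-12904098) had 5.07 and 11.8 FPKM in the treated and 3.75 and 14.3 FPKM in the untreated libraries, next to *ttr-28* and *ttr-29*, the latter with 3.26 and 4.78 FPKM in cisplatin 1 and 2, and 0.941 and 5.25 FPKM in control 1 and 2. All 3 genes of this run were highest in control 2 and lowest in control 1. *ttr-59* (X:7329818-7330669) had 38.7 and 48.0 FPKM after exposure, against 20.3 and 50.5 FPKM in the controls, and its neighbour *ttr-30* had 24.4 and 23.7 FPKM in the treated and 13.5 and 25.0 FPKM in the untreated libraries. *ttr-12* had a mean 13.1 times that of *ttr-11*, which was listed at 0 in 2 libraries. The gap between neighbours in the log2 difference of control 2 and control 1 had a median of 0.80, against 0.69 over all 1275 pairs of members. Between the controls, the median gap was thus not smaller for neighbours. Some neighbouring pairs share a member, and the difference between the medians was not tested. Between the treated libraries the gaps of neighbours ran from 0.03 (*ttr-2* and *ttr-1*) to 1.43 (*ttr-25* and *ttr-26*). For these libraries the gap over all pairs was not computed, so no such comparison can be made.

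**Figure D4:**
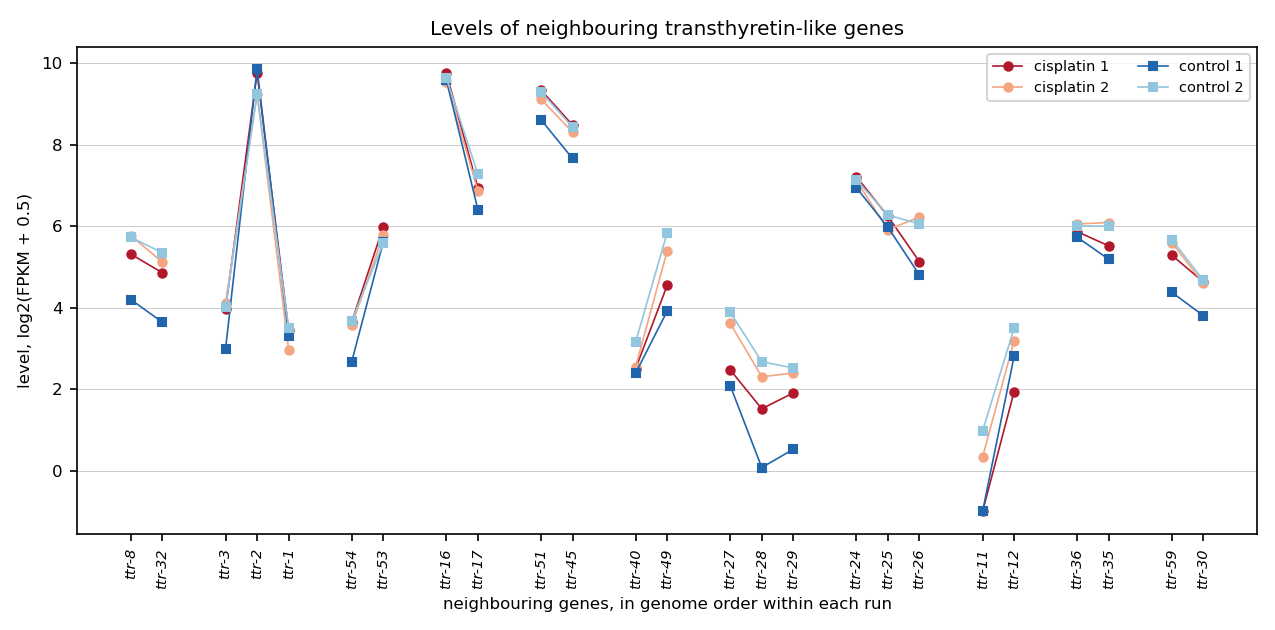
Level, as log2(FPKM + 0.5), of the 25 transthyretin-like genes that lie at most 5 kb from another member, in genome order within each of the 11 runs, with 1 line per library. The *ttr-3*, *ttr-2*, *ttr-1* run has the widest contrast, with *ttr-2* 54.6-fold and 79.6-fold above its neighbours. In 11 of 14 neighbouring pairs the same gene is higher in all 4 libraries, a count not made for other pairs of members.

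Of the separate transthyretin-related group, R09H10.3 had 61.6 and 59.8 FPKM in cisplatin 1 and 2, and 50.4 and 67.5 FPKM in control 1 and 2. Its log2 difference was 0.06 (s.e. 0.22). Control 1 was its lowest library, as in 38 transthyretin-like genes (74.5%, against 59.5% of all genes tested). Control 2 was its highest library, as in 31 (60.8%, against 41.3%). These are separate counts on the deposited scale, and both depended on the scaling.

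The precision of single values followed the level. The deposited confidence bounds had a half-width of 3.74% of their midpoint in the library where *ttr-15* was measured most precisely. It was 100% for *ttr-11* and, in at least 1 library each, for *ttr-9*, *ttr-28* and *ttr-39*, which means a lower bound of 0. Of the 204 values of the members 59 lay above their own upper bound and 0 below their lower bound, so the bounds were used only as a relative width and not as intervals of the values.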

How the data were processed

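RNA of 4 mixed-stage N2 populations was sequenced. The authors aligned reads with TopHat to WBcel235, removed reads with several mapping sites, and estimated levels with Cufflinks and Cuffdiff; the submitters' processing notes name the same tools, with versions not given. The deposited unit is FPKM per gene and library, with confidence bounds. FPKM are not counts. The study states only an approximate read number for all samples alike, and the files hold no depth, so precision was judged from the spread between replicates. The columns of the authors' own comparison (fold changes, p-values, q-values, splicing tests, condition means) were not used.

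Library columns were matched to samples by name. Genes with a failed estimate in any library (88) or a mean below 0.5 FPKM (255) were left out, and 15065 were compared on the log2(FPKM + 0.5) scale by limma (version 3.58.1, under R version 4.3.3) using its intensity trend, with 2 residual degrees of freedom per gene, two-sided, adjusted by Benjamini-Hochberg over all genes with a threshold of 0.05. The fit was run on simulated data with independent noise of the same spread for all genes. That noise held no shift between replicate numbers, so it cannot show how the fit behaves with such shifts. Errors (s.e.) are limma's standard errors and intervals are its 95% intervals. The authors' test was made for read counts, which the table does not hold, so limma was used in its place. Coordinates are those of the Ensembl annotation of WBcel235.

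Values were given for the 6 most abundant members, the 5 in each direction with the smallest p among those on one side in both same-numbered comparisons, up to 4 with the largest difference between replicate numbers in each direction (3 met this in the direction of number 1), *ttr-33* and *ttr-11*, and members in runs on the genome. *ttr-6*, *ttr-38*, *ttr-14* among members above 10 FPKM, *ttr-48* and the members grouped by level were singled out after their values were seen. Identity between proteins was not analysed here. The members, the marker lists and the tests were chosen with earlier results of these data known. Alternatives were pseudocounts of 0.1 and 1, no filter, a filter of 2 FPKM, failed estimates kept at 0, a common median, quantile normalization, no trend, a replicate block and leaving out each library.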

Additional observations from a re-analysis of the deposited data

How the results depend on the processing

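No member passed an adjusted p of 0.05 in limma under any of the 13 alternatives, and 0 genes of the table passed as deposited, against 1 with a pseudocount of 1 and between 0 and 21 when a library was left out (19 without cisplatin 1, 21 without cisplatin 2, 0 without either control). With a library left out, 1 group has a single library, which is then assumed to vary like the other group. With the replicate number as a replicate block, 369 genes passed, 0 of them members, the smallest adjusted p of a member being 0.143, and 6 members were higher at an unadjusted p of 0.05. The labels give the numbers no shared origin, while the study speaks of separate experiments, and there are only 2 pairs. Differences between numbers correlated between the groups across all genes (Pearson r = 0.59).

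Members higher at an unadjusted p of 0.05 numbered between 0 and 12 when a library was left out, 12 without control 2. Members lower at that p were 1 with a common median and 1 with quantile normalization. The share of all genes lower at that p is not given here for these scalings, so the counts cannot be set against it. Members higher in both same-numbered comparisons fell from 11 to 5 with a common median, and those lower in both rose from 5 to 17 with a common median and 16 with quantile normalization. Leaving out a library, the median difference of the members ranged from -0.23 to 0.62, the upper value without control 2, and relative to all genes from -0.073 to 0.20. The median difference between control 2 and control 1 was -0.055 with a common median in place of 0.86. With a common median the median difference of the members was -0.11, of the opposite sign to the deposited scale but within the spread between replicates. The median difference between cisplatin 2 and cisplatin 1 was -0.18, also of the opposite sign, and is itself a difference between replicates. The causes were not tested.

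Of single genes, *ttr-33* was -0.030 with a common median and -0.058 with quantile normalization. When a library was left out the log2 difference ranged from -0.73 to 1.08 for *ttr-33*, -1.22 to 0.037 for *ttr-12*, -1.14 to 0.32 for *ttr-23*, -0.050 to 1.46 for *ttr-37*, -0.059 to 0.80 for *ttr-5*, -0.81 to 0.11 for *ttr-50*, -0.19 to 1.34 for *ttr-8* and -1.60 to 0.71 for *ttr-9*. *ttr-3*, *ttr-53* and *ttr-39* kept their sign, with ranges of 0.025 to 1.06, 0.18 to 0.39 and -1.04 to -0.48, but *ttr-3* was near 0 without control 1, and *ttr-53* was 0.073 with a common median. Of the values for single genes 14 changed sign and 106 did not. Leaving out the filter, the filter of 2 FPKM and keeping failed estimates cannot change the log2 difference of a gene, so part of the 106 was fixed in advance. Of the others 14 moved by more than the spread between replicates or, for counts, by over 1.5 times, and 71 did not. A change of sign was not counted for these, and some of the 71 had one. An example is the median difference of the members, -0.11 with a common median against 0.09 as deposited. Having only 2 libraries per group, and no read counts in the files, limits what can be seen for weakly expressed members such as *ttr-9* and *ttr-11*.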
